A study of Mus musculus with 4 samples.

Results

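The cells described here are the CD8 T cells that had entered B16K1 melanomas, taken from a fraction called CD137 minus and a fraction called CD137 plus. A cell was kept when it had a value for Cd8a or Cd8b1, which encode the chains of the CD8 co-receptor. This kept 1251 of the 1262 cells of the tumour CD137 minus library and 2747 of the 2766 cells of the tumour CD137 plus library. Together they are 3998 of the 6965 cells of the series. Spleen libraries of the same fractions, with 2444 and 469 CD8 cells, are used below for comparison only.

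The hosts were C57BL/6 mice that had been lethally irradiated with 8 Gy and given marrow of both donor genotypes at once, a mixed chimera. The donor of the minus cells was Cd4cre Cd137fl/fl ROSA26tomato and the donor of the plus cells Cd137fl/fl ROSA26tomato, so both carried the loxP-flanked gene and the reporter allele. Reconstitution was checked at 7 weeks, B16K1 cells, a line of the B16 mouse melanoma, were then placed under the skin, and cells were collected on day 21. Hashtags marked 7 mice, whose cells went into 1 library per fraction, but the table does not tie a cell to a mouse. There is thus 1 library on each side, no replicate, and no test of any difference below. Cre under the Cd4 promoter acts in the thymus while Cd4 is on, so that CD8 as well as CD4 T cells carry the deletion, and host cells that survive irradiation are not marked by this scheme. The fractions were sorted by the tomato reporter and not by CD137 protein. The labels contradict each other on the reporter, since tomato-positive cells are Cd137 minus in the sorting protocol, while by their source names CD137ko cells are tomato negative. Groups here follow the CD137 status alone, and no reporter or Cre gene is in the table. Loss of CD137, presence of Cre and donor cannot be told apart.

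CD137, also called 4-1BB, is the product of Tnfrsf9 and belongs to the costimulatory members of the TNF receptor superfamily, which T cells put on their surface after antigen contact. Its ligand, encoded by Tnfsf9, is made mainly by antigen-presenting cells. Binding recruits TRAF adaptors, which switch on NF-kB and MAP kinase signalling and raise survival proteins of the BCL2 family. In tumours, CD8 cells that meet antigen for long periods come to carry inhibitory receptors such as PD-1 (Pdcd1) and TIM-3 (Havcr2), a state called exhaustion. A smaller PD-1 pool that keeps the transcription factor TCF1 (Tcf7) can renew the others. Naive and central memory cells instead keep the factors LEF1, TCF1 and KLF2.

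Levels are corrected counts summed over the cells of a library and scaled to a library total of 1e+06 (CPM). A gene was measured when it reached 20 CPM and had a value in 5% of cells in 1 library, with a value in both, and 5360 genes were. The log2 ratio of minus over plus was taken after adding 1 CPM, and its median over measured genes, -0.13, was taken off, which gives the centred log2 ratio used below. Genes at 0.5 or more in size are called higher or lower in the minus library. There were 195 higher genes, 3.64% of those measured, and 122 lower genes, 2.28%, so 5.91% were past the limit in either direction. Without taking off the median the split was 89 higher and 286 lower genes. The median corrected total per cell was 4836 in the minus and 3700 in the plus library, with 1434 and 1306 genes per cell, so shares of cells are also given after every cell was thinned to 2900 corrected counts. Mitochondrial transcripts made up a median of 1.96% and 1.35% of a cell's total and ribosomal protein transcripts 32.1% and 27.0%. The part of these gaps in the results was not tested.

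The CD8 genes chose the cells and so cannot check the label. Among T cell genes that did not, Cd3e had a value in 98.6% of minus and 98.1% of plus cells and Lck in 93.2% and 85.0%. Trac had one in 63.1% and 61.6% and Trbc2 in 66.7% and 62.2%. With Cd3d and Cd3g these 6 genes summed to 4500 CPM in minus and 5355 CPM in plus cells. Of the 6, 5 had a centred log2 ratio below 0, and Lck was at 0.18. A few defining markers of each other cell type, picked from longer lists, were low: macrophage markers summed to 12.2 CPM in minus and 18.5 CPM in plus cells, melanoma markers to 30.7 and 30.9 CPM, and CD4 and regulatory T cell markers to 12.2 and 7.45 CPM. B cell markers summed to 128 and 105 CPM, almost all of it Ighm, while Ms4a1 was at 0 in both and Cd79a at 0 in the minus library. The markers of fibroblasts and endothelium summed to 19.6 and 16.5 CPM and those of plasmacytoid dendritic cells to 63.2 and 72.9 CPM. The sum of NK cell markers was 57.3 CPM in minus and 99.1 CPM in plus, nearly all Klre1, which activated CD8 cells also express, and none of the neutrophil markers is in the table. The longer lists also hold genes not restricted to those cells, and summed to more. They reached 404 and 492 CPM for B cells, 287 and 332 CPM for macrophages and 352 and 436 CPM for CD4 and regulatory T cells. For plasmacytoid dendritic cells the sums were 436 and 506 CPM, and for NK cells 197 and 250 CPM. In cells with a Pdcd1 value, 3 of 4 measured genes of the B cell list were called lower (median -1.11), Cd74 (139 and 233 CPM), H2-Aa (10.1 and 36.8 CPM) and Igkc (6.48 and 20.5 CPM). Their part in the results was not tested. A single barcode occurred in both tumour libraries.

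A few promoter sequences are shown for picked genes: the deleted gene, Gzmb, and a pair of near-identical survival genes. Those of other genes named below, such as Ccl3 and Ccl4, are not printed. They come from RefSeq on GRCm38.p6, read 5′ to 3′ on the strand of the gene. Windows of 250 bases before each start were searched on both strands for a kappa-B motif, bound by NF-kB and written as GGG, any 2 bases and TTTCC, and for the AP-1 letters TGANTCA. Capitals mark matches. Annotated UTR bases were cut off, and for Tnfrsf9, where the matches fall inside an annotated UTR of a minor transcript, only 30 bases around the kappa-B match are printed.
Tnfrsf9, chr4:150927946-150927975, plus strand: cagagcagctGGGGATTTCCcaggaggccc
Bcl2a1b, chr9:89199023-89199208, plus strand: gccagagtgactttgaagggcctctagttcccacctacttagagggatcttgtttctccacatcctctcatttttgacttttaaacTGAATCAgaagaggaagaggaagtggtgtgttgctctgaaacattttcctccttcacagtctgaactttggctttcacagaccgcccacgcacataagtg
Bcl2a1d, chr9:88731915-88732100, minus strand: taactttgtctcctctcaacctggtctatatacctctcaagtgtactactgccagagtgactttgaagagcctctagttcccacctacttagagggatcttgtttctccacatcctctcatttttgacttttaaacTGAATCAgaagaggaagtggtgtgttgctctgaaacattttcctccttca
Gzmb, chr14:56262335-56262584, minus strand: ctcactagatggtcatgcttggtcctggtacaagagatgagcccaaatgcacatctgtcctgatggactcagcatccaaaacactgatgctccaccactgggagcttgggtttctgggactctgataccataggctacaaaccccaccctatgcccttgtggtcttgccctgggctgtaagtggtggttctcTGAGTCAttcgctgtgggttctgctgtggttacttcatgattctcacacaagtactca

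RefSeq gives Tnfrsf9 2 windows, and the window of the printed run also held an AP-1 match. Over all 32851 windows of the table, 1.41% held the kappa-B motif and 6.75% the AP-1 letters. Of the 12 windows matched to the genes furthest below 0, none held the kappa-B motif and 2 held the AP-1 letters, those of Bcl2a1d and Gzmb. Letters for TCF/LEF (CTTTGAT), KLF (CACACCC) and T-box factors (TCACACC) were searched too, and 3.21%, 6.93% and 3.33% of all windows held them. Of the same 12 windows, 2 held the TCF/LEF letters and none the KLF or T-box letters. Of 20 windows of the genes furthest above 0, 4 held the KLF letters, 1 the AP-1 letters and none the other motifs. The Bcl2a1b and Bcl2a1d runs above align over 136 bases with 135 identical, beside a gap of 6 bases, and the gene transcripts are identical at 810 of 817 aligned nucleotides. A match is only a run of letters in this window.

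Tnfrsf9 was far lower in the minus library, the direction its label gives, but it was not at 0. Its level was 58.0 CPM in minus and 423 CPM in plus cells, a centred log2 ratio of -2.72. A Tnfrsf9 value was seen in 16.0% of minus cells (14 to 18.1, exact Clopper-Pearson 95% interval, which covers counting error only) and in 45.4% of plus cells (43.5 to 47.3). After thinning the shares were 11.4% and 41.6%. A 5′ library reads the start of a transcript, and the sources used here do not name the exons flanked by loxP, so transcripts from a deleted allele and from an undeleted one cannot be told apart.

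The residual Tnfrsf9 transcript of minus cells followed the same order over cell states as in plus cells. Cells were put in 4 gates: Pdcd1 with Havcr2, Pdcd1 with Tcf7 and no Havcr2, Pdcd1 with neither, and no Pdcd1. In cells with Pdcd1 and Havcr2 the level was 170 CPM in minus and 898 CPM in plus, and 50% and 81.9% of cells had a value. In cells with Pdcd1 and Tcf7 it was 70.4 and 322 CPM, and in cells with Pdcd1 alone 113 and 582 CPM. Both libraries were thus highest in the gate with both inhibitory receptors. Cells without Pdcd1 had 15.6 and 175 CPM, in 3.79% (2.54 to 5.44) and 22.6% (20.3 to 25.02) of cells. In spleen, where Tnfrsf9 is low in both fractions, 0.859% (0.533 to 1.31) of minus cells had a value. Free RNA can give such values too, but that of the tumour libraries was not measured here, and its part was not tested.

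**Figure D1:**
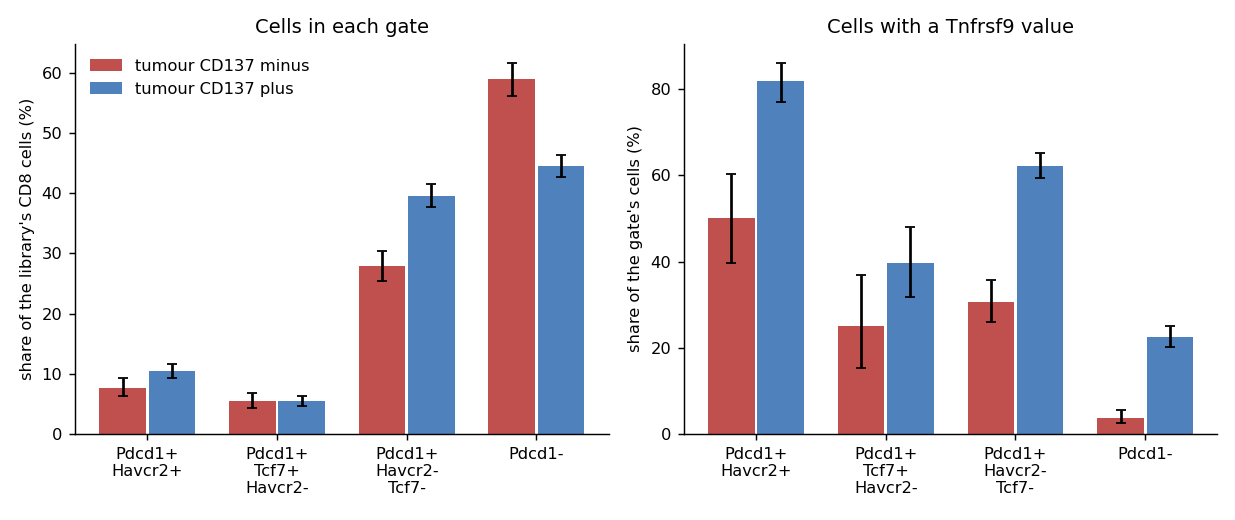
Left, the share of each tumour library's CD8 cells in 4 gates set by a value of Pdcd1, Havcr2 and Tcf7; right, the share of cells in each gate with a Tnfrsf9 value. Bars are single libraries and error bars exact 95% binomial intervals; the gate without Pdcd1 held 59.0% of minus and 44.5% of plus cells, and Tnfrsf9 was seen in a smaller share of minus cells in every gate, with overlapping intervals in the gate of Pdcd1 and Tcf7.

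The make-up of the fractions by these gates differed. Any Pdcd1 value was seen in 41.0% (38.3 to 43.8) of minus cells against 55.5% (53.6 to 57.3) of plus cells, or 36.5% and 51.7% after thinning. Within the cells that had Pdcd1 the make-up was close: Havcr2 was seen in 18.7% (15.4 to 22.4) of those in minus and 18.8% (16.9 to 20.9) of those in plus. After thinning these Havcr2 shares were 13.8% and 15.5%. Tcf7 without Havcr2 was seen in 13.3% (10.4 to 16.5) and 9.78% (8.33 to 11.4), intervals that overlap, and in 8.97% and 8.25% after thinning. Cells without any Pdcd1 value were 59.0% (56.2 to 61.7) of minus against 44.5% (42.7 to 46.4) of plus cells.

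Genes of naive and central memory T cells were higher in the minus library as a group. Of 13 listed genes all were measured, 10 were called higher and none lower, with a median of 0.58 where the median over all measured genes is 0. Igfbp4, a gene of naive T cells whose product binds insulin-like growth factors, was at 100 CPM in minus and 57.1 CPM in plus cells (centred log2 ratio 0.93). Lef1, a factor that acts with TCF1, was at 181 and 113 CPM (0.81). The chromatin organiser Satb1 was at 112 and 71.5 CPM (0.76). Lef1 and Satb1 thus both had larger values in minus cells. Bach2, a repressor that restrains effector genes, was at 29.6 and 19.1 CPM (0.73), and Il7r, the receptor for the survival cytokine IL-7, at 154 and 113 CPM (0.58). S1pr1, the receptor for exit from tissue, was at 59.0 and 43.4 CPM (0.56), and Klf2, which drives it, at 1518 and 1134 CPM (0.55). Members under the limit were Ccr7 at 0.46, Ssbp2 at 0.24 and Actn1 at -0.09. Without taking off the median of all genes, Il7r (0.45), S1pr1 (0.43), Klf2 (0.42) and Tcf7 (0.38) fell under 0.5 too.

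In shares of cells the naive genes pointed the same way. Igfbp4 was seen in 19.1% (17.0 to 21.4) of minus cells against 9.72% (8.64 to 10.9) of plus cells, and Lef1 in 38% (35.4 to 40.8) and 24% (22.4 to 25.7). After thinning these were 14.2% and 8.74% for Igfbp4 and 29.7% and 20.1% for Lef1. The intervals of the libraries did not overlap for either gene. The genes of progenitor exhausted cells, a list that shares Tcf7 and Il7r with the naive list, had 4 of 10 measured members called higher and none lower (median 0.35). Id3, an inhibitor of E proteins kept by these cells, was at 120 and 80.8 CPM (0.70), while Slamf6 was at 0.41, Eomes at -0.18 and the chemokine gene Xcl1 at -0.26. Other higher genes outside these lists were the cytokine receptor chains Il6ra (41.3 and 25.1 CPM, 0.82) and Ifngr2 (22.4 and 12.6 CPM, 0.92), part of 3 of 17 cytokine receptors called higher.

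**Figure D2:**
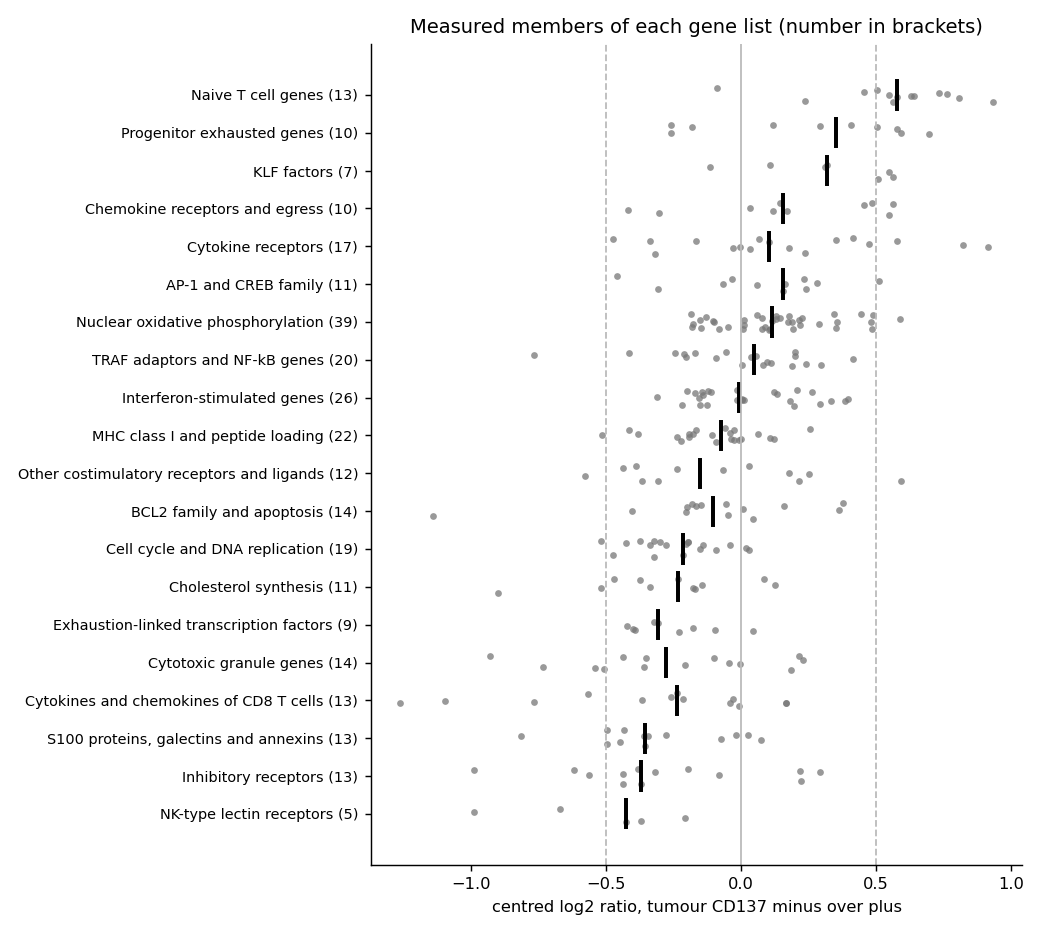
Each point is a measured gene of a list, placed by its centred log2 ratio of tumour CD137 minus over plus (1 library each), and the black bar is the list's median; dashed lines mark the limit of 0.5. Naive genes have the highest median of the lists drawn, at 0.58, and NK-type lectin receptors the lowest, at -0.42.

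Some effector products were lower in the minus library, Ccl3 and Ccl4 furthest among those listed. Ccl3 and Ccl4, which encode chemokines released by activated CD8 cells, were at 150 and 395 CPM (-1.26) and at 315 and 738 CPM (-1.09). Ifng was at 202 and 377 CPM (-0.77) and Ccl5 at 4232 and 6864 CPM (-0.57). These were the 4 of 13 measured cytokine and chemokine genes called lower, none was called higher, and the median was -0.23. Tnf differed little, at 53.1 and 58.4 CPM (-0.01), and the chemokine gene Ccl1 stayed under the limit (-0.37). Ccl3 was seen in 14.1% (12.3 to 16.2) of minus cells against 24.2% (22.6 to 25.8) of plus cells.

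Of the cytotoxic granule genes, 4 of 14 were called lower and none higher (median -0.28). Gzmb, a granzyme that kills the target cell, was at 124 and 260 CPM (-0.93) and was seen in 14.8% (12.9 to 16.9) of minus cells against 25.6% (24 to 27.3) of plus cells. Gzmk was at 98.3 and 179 CPM (-0.73), the pore former Prf1 at 99.9 and 156 CPM (-0.51), and Serpinb9, which shields the killer cell from its own granzyme B, at 60.8 and 97.3 CPM (-0.54). The granule genes did not move as a block: Gzma was at 198 and 217 CPM (-0.00), and Ctsw, Lamp1 and Gzmm lay between 0.19 and 0.23.

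A few inhibitory receptors were lower as well. Klrc1, which encodes the NKG2A chain, was at 101 and 220 CPM (-0.99). Lilrb4a was at 34.8 and 59.0 CPM (-0.62) and Tigit at 256 and 415 CPM (-0.56). These were the 3 of 13 measured receptors called lower, and none was called higher (median -0.37). The receptors used most to define exhaustion stayed under the limit: Pdcd1 was at -0.38, Havcr2 at -0.44, Lag3 at -0.32 and Ctla4 at -0.20. Cd160, Vsir and Cd200 had positive values, from 0.22 to 0.29. Klrc1 and Klre1, at 55.1 and 96.6 CPM (-0.67), were also 2 of 5 measured NK-type lectin receptors called lower, and NKG2A's partner Klrd1 was at -0.37.

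Over all tumour CD8 cells, no exhaustion-linked transcription factor reached the limit in either direction. Tox, needed for the exhausted state, was at 132 and 191 CPM (-0.40) and Nr4a2 at 687 and 1006 CPM (-0.42). The median of the 9 measured factors was -0.31, and 8 of them were below 0. Among effector factors only Tbx21, which encodes T-bet, was called lower (81.9 and 134 CPM, -0.58) of 9 measured, and Runx3 stood at 0.34. Of feedback regulators of receptor signalling, Rgs16 (320 and 540 CPM, -0.62) and Cish (59.2 and 95.1 CPM, -0.55) were called lower of 24 measured, with a median of -0.07.

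**Figure D3:**
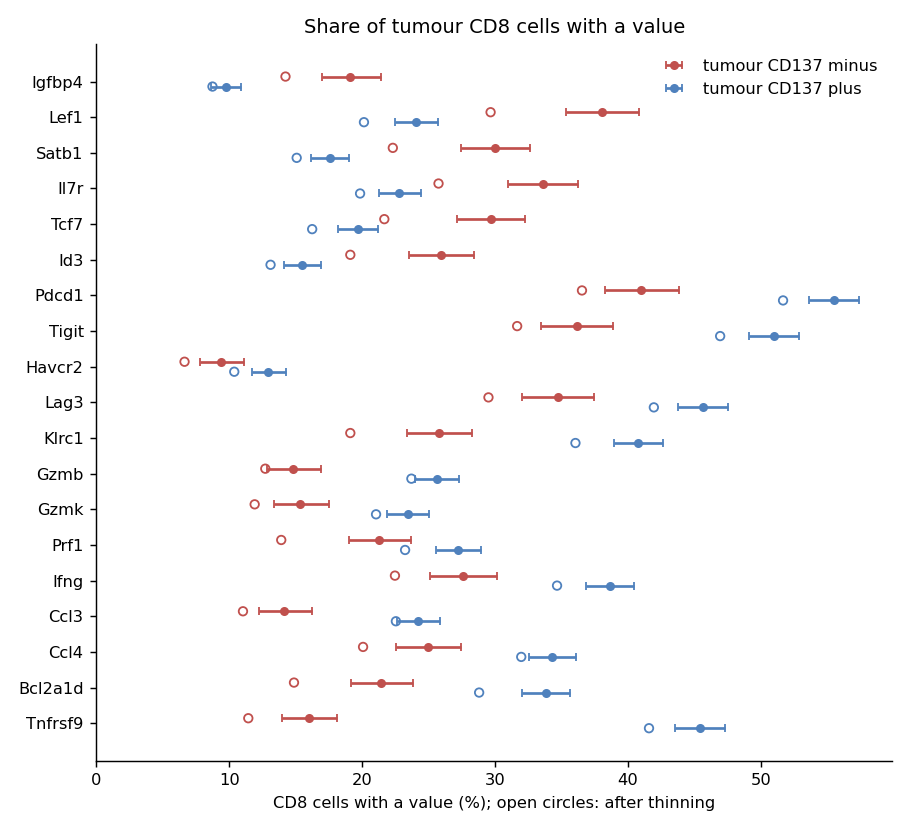
Filled points are the share of CD8 cells with a value of each gene in the tumour CD137 minus and plus libraries, with exact 95% binomial intervals; open circles are the shares after thinning to 2900 corrected counts per cell. The naive genes at the top lie further right in minus cells and the receptor and effector genes below in plus cells.

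Genes downstream of CD137 as textbooks draw it showed small values for the most part. Of 20 measured TRAF adaptor and NF-kB genes, 1 was called lower and none higher, with a median of 0.05, or -0.082 without taking off the median of all genes. The adaptors Traf1 (162 and 184 CPM, -0.06), Traf2 (32.8 and 33.1 CPM, 0.11) and Traf3 (23.4 and 24.2 CPM, 0.08) differed little. Birc2, which encodes the ubiquitin ligase cIAP1 of the TRAF complex, was the 1 called lower, at 37.6 and 70.9 CPM (-0.77), and its relative Birc3 was at 0.04. Nfkb2 stood at -0.41 and Rel at 0.20.

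The survival list had 1 of 14 measured genes called lower and a median of -0.10. Bcl2a1d, a member of the A1 family of BCL2-like proteins that NF-kB induces, was at 68.3 and 166 CPM (-1.14), and Bcl2a1b at 222 and 321 CPM (-0.40). Because these genes are near-identical in transcript, reads may be split between them and their separate values are uncertain. Bcl2l1, which encodes BCL-XL, a product linked to CD137 signalling, was at 20.1 and 24.5 CPM (-0.15), while Bcl2 was at 0.38 and Bbc3, a killer protein gene, at 0.36. Of 12 other costimulatory receptors and ligands, Tnfsf11 was called lower (34.4 and 56.8 CPM, -0.58) and Tnfsf8 higher (26.9 and 19.2 CPM, 0.59). The ligand gene Tnfsf9 itself was at 17.2 and 26.0 CPM (-0.44).

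Splitting the cells by Pdcd1 changed the picture for effector and receptor genes. Between the 513 minus and 1524 plus cells with a Pdcd1 value, 5782 genes were measured, 224 were higher (3.87%) and 154 lower (2.66%), or 6.54% either way. Between the 738 and 1223 cells without one, 4868 were measured, 202 were higher (4.15%) and 212 lower (4.35%), or 8.5% either way, a split that became 83 higher and 440 lower without taking off the median. Inhibitory receptors had a median of -0.13 in cells with Pdcd1 and -0.66 in cells without it, where 7 of 11 measured were called lower. Cytokines and chemokines had a median of 0.01 with Pdcd1, with 3 of 14 called higher and 3 lower, and of -0.66 without it, with 7 of 11 called lower. Exhaustion-linked factors had a median of -0.11 with Pdcd1 and -0.50 without it, where 4 of 9 measured were called lower. Effector factors had a median of 0.07 with Pdcd1, where 1 of 9 was called higher. Without it their median was -0.54, and 5 of 9 were called lower. Naive genes had medians of 0.46 and 0.34, with 5 of 13 called higher on each side against 10 of 13 in all cells. The difference between the sides was not tested.

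Single genes show the split. Prf1 was at 192 CPM in minus and 205 CPM in plus cells with Pdcd1 (-0.08), and at 35.3 and 93.2 CPM in cells without it (-1.24). Tigit was at 520 and 603 CPM (-0.19) with Pdcd1 and at 71.1 and 175 CPM (-1.16) without. Gzmk was at 162 and 190 CPM (-0.22) with and 53.7 and 165 CPM (-1.47) without. These 3 genes were close in Pdcd1 cells and lower in minus cells among the rest. Gzmb, Ccl3 and Ccl4 were lower on both sides, at -1.13, -0.87 and -0.90 with Pdcd1 and at -0.88, -1.97 and -1.31 without. Bcl2a1d (-0.88 and -1.34), Birc2 (-0.58 and -0.82) and Klrc1 (-0.69 and -1.32) did likewise. Cells without a Pdcd1 value include cells whose Pdcd1 was not captured, so they are not all cells that lack it. Their median was 1329.5 genes per cell in minus and 1184 in plus, so capture may differ between the libraries. The split contrast was not repeated after thinning, and the part of capture in it was not tested.

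**Figure D4:**
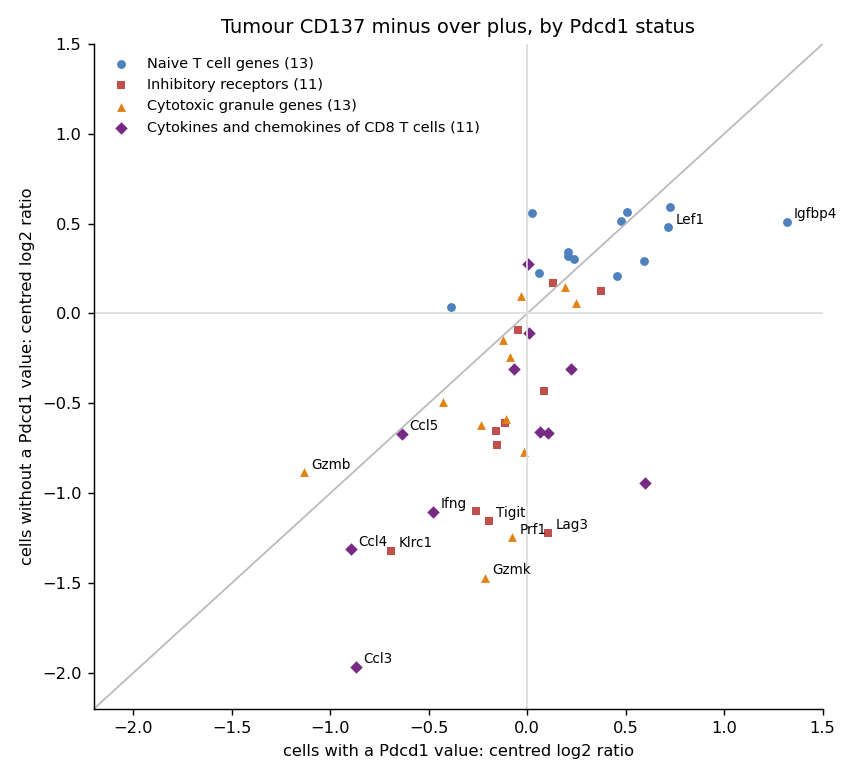
Each point is a gene of 4 lists measured both in tumour cells with Pdcd1 and in those without it, placed by its centred log2 ratio of CD137 minus over plus in cells with a Pdcd1 value (x) and without one (y); Pdcd1 is left out and the line marks equal values. Most inhibitory receptor and cytokine genes lie below the line, with Prf1, Tigit and Lag3 near 0 in Pdcd1 cells.

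Inside the gates the sign of Igfbp4 varied by level but rested on few cells, while Gzmb and Ccl4 were lower in minus cells in all 4. Among cells without Pdcd1, Igfbp4 was at 149 CPM in minus and 114 CPM in plus cells, Lef1 at 264 and 208 CPM and Il7r at 196 and 175 CPM, centred log2 ratios of 0.51, 0.48 and 0.29. Among cells with Pdcd1 but no Havcr2 or Tcf7, Lef1 was at 58.2 and 31.2 CPM (0.90) and Igfbp4 at 37.8 and 9.16 CPM (1.96). In the smaller gate with Pdcd1 and Tcf7, Igfbp4 was at 33.7 and 45.2 CPM (-0.41) and Lef1 at 150 and 132 CPM (0.19). The share of cells with an Igfbp4 value went the other way there, at 10.3% of minus and 8.05% of plus cells. In the gate with Pdcd1 and Havcr2, Igfbp4 was under the filter, at 6.31 and 6.26 CPM. Gzmb was lower in minus cells in every gate, from -0.88 in cells without Pdcd1 (132 and 267 CPM) to -2.46 in cells with Pdcd1 and Tcf7 (24.5 and 139 CPM). Ccl4 was lower in each as well, from -0.73 to -1.83. Ccl3 was lower in 3 gates but at 58.1 and 50.6 CPM (0.20) in the gate with Pdcd1 and Tcf7, and Gzmk was at 198 and 151 CPM (0.37) in the gate with Pdcd1 and Havcr2. Lag3 and Tox were near 0 in all 3 gates with Pdcd1, between -0.04 and 0.15 for Lag3 and between -0.17 and 0.06 for Tox, and below 0 in cells without Pdcd1, at -1.22 and -0.66. These genes, Tnfrsf9 apart, were picked for this view after values had been seen, and the gate with Pdcd1 and Tcf7 held only 68 minus and 149 plus cells.

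When minus cells were weighted so that the gates had the shares of the plus library, 138 genes were higher and 74 lower. The naive median became 0.35, the inhibitory receptor median -0.05 and the cytotoxic median -0.16.

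The spleen contrast comes from the same mice but other libraries. The median corrected total per cell was 3965.5 in spleen minus and 5337 in spleen plus cells, the reverse of the order in tumour. Tnfrsf9 was at 2.36 CPM in minus and 16.0 CPM in plus spleen cells, both under the filter. Of 5204 measured spleen genes 116 were higher (2.23%) and 381 lower (7.32%), or 9.55% either way. Of the 4665 genes measured in both tissues, 7 were higher in both and 15 lower in both, 41 were higher in tumour and lower in spleen, and 9 the reverse. Across these genes Pearson's r was -0.07, a description only, since genes are not independent.

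Of the 15 genes lower in both tissues 13 passed the naming filter, and the 8 furthest from 0 on their weaker side are given. Ccl4 was at 20.02 CPM in minus and 133 CPM in plus spleen cells (-2.59), Gzmk at 7.08 and 49.5 CPM (-2.57) and Gzmb at 12.4 and 54.8 CPM (-1.98). Klrc1 was at 21.4 and 76.5 CPM (-1.72), Ifng at 7.60 and 27.4 CPM (-1.65), Klre1 at 12.3 and 29.9 CPM (-1.13) and Lgals3, which encodes galectin-3, at 17.5 and 35.2 CPM (-0.89). These 7 are products or receptors described above, Lgals3 apart. AY036118 had the lowest value of the named genes in tumour after Tnfrsf9, at 204 and 751 CPM (-1.75), and was at 310 and 550 CPM in spleen (-0.75). No protein-coding transcript of AY036118 was found in the annotation, and what its values reflect was not tested. Higher in both were Igfbp4 (211 and 133 CPM in spleen, 0.74), Id3 (106 and 78.1 CPM, 0.52), Rflnb (175 and 116 CPM, 0.67; 52.3 and 34.9 CPM in tumour, 0.70) and Ramp1 (143 and 81.8 CPM, 0.88; 75.7 and 56.7 CPM in tumour, 0.54), a subunit of the receptor for the neuropeptide CGRP. Other naive genes that were higher in tumour stayed under the limit in spleen, from Dapl1 at 0.49, Lef1 at 0.47 and Klf2 at 0.34 over Il7r at 0.09, S1pr1 at -0.03 and Satb1 at -0.06 to Bach2 at -0.44.

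**Figure D5:**
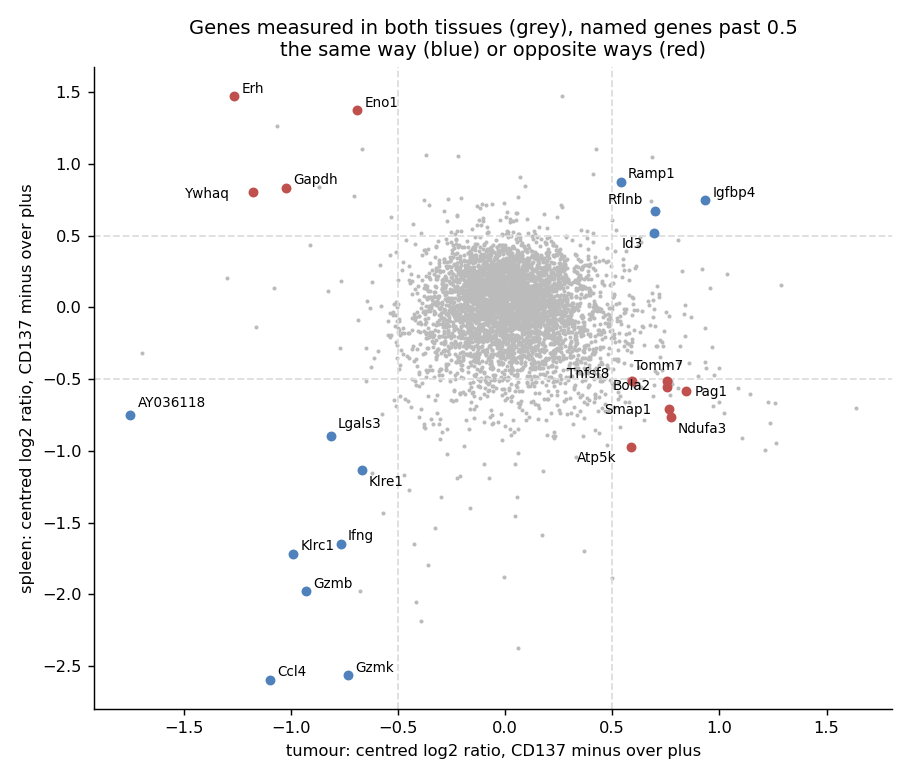
Each grey point is 1 of 4665 genes measured in both tissues, placed by its centred log2 ratio of CD137 minus over plus in tumour (x) and spleen (y), 1 library per fraction and tissue. Blue genes are only those picked by the rule for genes furthest past 0.5 the same way in both tissues. Other named genes past it the same way are not blue. In tumour and spleen these were Ccl5 (-0.57 and -1.43), Prf1 (-0.51 and -0.69), Tbx21 (-0.58 and -0.74) and Itgb2 (-0.52 and -0.64). Red genes were named by any rule and are past 0.5 in opposite ways, such as Erh at -1.26 in tumour and 1.47 in spleen. The numbers of blue and red genes are thus not comparable.

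The remaining genes at the ends of the tumour contrast were not members of the effector or naive lists. Some still varied with the gates. Gapdh was at 1368 CPM in minus and 2958 CPM in plus cells with Pdcd1 and Havcr2, and at 717 and 1564 CPM without Pdcd1. Tmsb10 went the other way, at 5357 and 4069 CPM with Pdcd1 and Havcr2 and at 11637.5 and 7913 CPM without Pdcd1. Below 0 were Erh (37.9 and 101 CPM, -1.26), a nuclear splicing-linked protein gene, Ywhaq (49.6 and 124 CPM, -1.18), a 14-3-3 adaptor, Crbn (34.8 and 81.6 CPM, -1.08), a ubiquitin ligase subunit, and Gapdh (981 and 2177 CPM, -1.02), a glycolytic enzyme. Above 0 were the chromatin genes Setd5 (91.7 and 54.6 CPM, 0.87) and Chd3 (159 and 105 CPM, 0.73). Pag1, an adaptor that holds the kinase CSK at the membrane, was at 51.8 and 31.2 CPM (0.84). Ndufa3 (170 and 108 CPM, 0.77) belongs to complex I and Tomm7 (277 and 179 CPM, 0.75) to the mitochondrial import pore. Further ones were Smap1 (0.77), Bola2 (0.76), the cofilin phosphatase gene Ssh2 (0.74) and Tmsb10 (9617 and 6283 CPM, 0.74), an actin-binding peptide. Erh, Ywhaq, Gapdh, Ndufa3, Tomm7, Pag1, Smap1 and Bola2 went the opposite way in spleen.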

How the data were processed

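CD8 T cells of 7 pooled mice gave 5′ single-cell libraries, 1 per fraction and tissue. The submitters' processing notes name mm10, Cell Ranger 3.0.2 and Seurat 3.0, and the sources used here do not state cell filters or normalization. The table deposited by the authors holds natural log values for 6965 cells and 12763 genes. The exponential less 1 gives whole numbers to a relative tolerance of 1e-12. Their totals per cell span a narrow range, 3632 to 5712 for tumour minus and 2949 to 4588 for tumour plus cells, so they are read as corrected counts, raw depth is unknown and no count model was used. They were summed per library (5984460 and 10198372) and scaled to 1e+06. Shares have exact Clopper-Pearson 95% intervals. Thinning left out no cell. No doublet caller was run.

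Among genes at 50 CPM and in 10% of cells of 1 tumour library, the text names the 12 furthest each way. It also names up to 8 past 0.5 the same way in both tissues, the 8 furthest each way in Pdcd1 cells and up to 4 per list past 0.5. Genes picked by these rules but named only here are Hist1h4d (0.84), Mpp7 (0.52), Fos (0.51) and Icam2 (0.50). Irf8 (-0.56), Itgb2 (-0.52) and Eef2 (-0.51) are the others, all by the centred log2 ratio in tumour CD8 cells. Left out were sex-linked genes, unnamed models, segments of receptors and antibodies, and genes of mitochondria, ribosomes and haemoglobin. The name pattern used for unnamed models did not cover AY036118, which was kept. Other genes were named after their values were seen. A few listed genes, 1 of them planned to set a gate, were left out of lists and gates and are not reported here. The cells, lists and rules were chosen with earlier results of these data known. Processed pseudogene copies were counted with minimap2 2.31 on GENCODE transcripts. The contrast was tested on simulated data. Scripts ran on Python 3.11.15 with scipy 1.17.1, pandas 2.3.3, numpy 2.4.6 and matplotlib 3.10.9. The alternatives tried are in the closing section.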

Additional observations from a re-analysis of the deposited data

Results flagged for a closer look

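The data gave 11 named genes past 0.5 one way in tumour and the other way in spleen, and the difference between the tissues was not tested. Lower in tumour minus cells and higher in spleen minus cells were Erh (-1.26 and 1.47), Ywhaq (-1.18 and 0.80), Gapdh (-1.02 and 0.83) and Eno1 (-0.69 and 1.37). Higher in tumour and lower in spleen were Pag1 (0.84 and -0.58), Ndufa3 (0.77 and -0.76), Smap1 (0.77 and -0.71) and Bola2 (0.76 and -0.55). So were Tomm7 (0.75 and -0.51), Tnfsf8 (0.59 and -0.51) and Atp5k (0.59 and -0.97). In levels, Gapdh was at 981 CPM in tumour minus, 2177 in tumour plus, 519 in spleen minus and 307 in spleen plus, and Eno1 at 307, 544, 252 and 102 CPM. The annotation holds 172 processed pseudogene copies of Gapdh at 90% identity or more, 7 of Ywhaq, 5 of Eno1 and 2 of Erh, and none of the other 7 genes. The part of such copies in these values was not tested. Median corrected totals per cell were larger in minus in tumour (4836 and 3700) but larger in plus in spleen (3965.5 and 5337). Because the 11 genes were chosen for opposite signs, each had to keep 1 direction relative to the library with the larger total. That regularity therefore carries no information about the totals. The part of these totals was not tested either. Eno1 lies within 1 Mb of Tnfrsf9 on chromosome 4, from 150236721 to 150248879.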

How the results depend on the processing

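No paired analysis was possible because each group is 1 library with replicate number 1. No library was left out for the same reason. The cause of each change was not tested.

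Counts are given as higher and lower in all tumour cells, tumour cells with Pdcd1, tumour cells without it, and spleen. With a pseudocount of 10 they were 102 and 64, 117 and 68, 99 and 99, and 47 and 197. With no filter they were 792 and 568, 980 and 883, 1072 and 997, and 498 and 1046. With the filter of 50 CPM and 10% of cells they were 93 and 56, 99 and 46, 72 and 92, and 22 and 159. At a size limit of 1 they were 17 and 17, 17 and 19, 12 and 26, and 11 and 47. Without taking off the median, tumour had 89 and 286, cells without Pdcd1 83 and 440, and spleen 76 higher, and in tumour the larger side turned from higher to lower. With totals free of ribosomal protein and mitochondrial genes, 232 were lower in Pdcd1 cells and 197 higher in spleen. Weighting to the plus gate shares left 74 lower.

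Without taking off the median, list medians were 0.45 for naive, 0.22 for progenitor, -0.44 for exhaustion-linked factors, -0.50 for inhibitory receptors, -0.41 for cytotoxic genes, -0.36 for cytokines, -0.082 for TRAF and NF-kB genes and -0.23 for survival. Weighted to the plus gate shares, they were 0.35, 0.21, -0.19, -0.053, -0.16 and -0.12 for the first 6. With no filter the cytotoxic median was -0.38. Tnfrsf9 stayed between -2.85 and -2.44 under all alternatives run.

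Thinning moved the shares of minus and plus cells to 5.04% and 8.01% (Pdcd1 with Havcr2), 3.28% and 4.26% (Pdcd1 with Tcf7), 63.5% and 48.3% (no Pdcd1) and 11.4% and 41.6% (Tnfrsf9). In cells with both Cd8a and Cd8b1, Pdcd1 alone marked 31.0% and 43.0%, no Pdcd1 54.3% and 39.9%, and Tnfrsf9 48.8% of plus cells. Equal weights per cell, no gate and a gate without other-cell markers kept all counts within 1.5 times and medians within 0.1. Shares were run only with no gate among these, and stayed within their intervals. Of 62 named genes, 27 fell under 0.5 when weighted to the plus gate shares and 17 with a pseudocount of 10. Without taking off the median, 12 of the 62 did.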

Other observations

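Other groups were counted in the tumour contrast as well. Of 7 measured Krueppel-like factor genes 3 were called higher, Klf2, Klf3 (103 and 78.8 CPM, 0.51) and Klf7 (36.1 and 26.5 CPM, 0.56), and the median was 0.32. Without taking off the median of all genes, Klf2 (0.42), Klf3 (0.38) and Klf7 (0.43) were all under the limit. Of 26 measured interferon-stimulated genes none was called either way (median -0.01), and of 22 genes of MHC class I and peptide loading only the peptide transporter Tap1 was called lower (94.7 and 149 CPM, -0.52; median -0.07). The 39 nuclear genes of oxidative phosphorylation had 1 called higher, Atp5k, and a median of 0.12. Of 19 cell cycle genes 1 was called lower, Ube2c, and the proliferation marker Mki67 was at 18.9 and 23.9 CPM (-0.20). Cholesterol synthesis had 2 of 11 called lower, Idi1 (14.9 and 31.4 CPM, -0.90) and Cyp51 (42.4 and 67.0 CPM, -0.52), at a median of -0.23. S100 proteins, galectins and annexins, many of which mark activated and tissue-entering T cells, had 1 of 13 called lower, Lgals3 (88.4 and 171 CPM, -0.81), at a median of -0.36. Their part in the differences above was not tested.

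The table holds 22 Trbv and 68 Trav segments of the T cell receptor. Different clones can share a segment, and no clones were called. The intervals of the tumour libraries did not overlap for 6 Trbv and 17 Trav segments. The same count was not made over all genes, so these counts have no background to be read against. Trbv29 was seen in 9.19% (7.65 to 10.9) of minus cells against 13.6% (12.4 to 15) of plus cells, against 7.69% and 6.82% in spleen. Trbv4 was seen in 7.91% (6.48 to 9.55) and 3.31% (2.68 to 4.05), against 3.15% and 3.41% in spleen. Trav14-1 was seen in 8.23% (6.77 to 9.90) and 3.46% (2.81 to 4.21), and Trav13n-1 in 3.04% (2.16 to 4.15) and 0.182% (0.0591 to 0.424). Trav12-3 went the other way, at 1.68% (1.04 to 2.55) and 6.12% (5.25 to 7.08). In spleen minus and plus cells, Trav14-1 was at 4.38% and 3.84%, Trav13n-1 at 0.982% and 1.07%, and Trav12-3 at 1.88% and 2.13%. After thinning the shares were 8.31% and 13.1% for Trbv29, 6.16% and 2.88% for Trbv4, 7.43% and 3.31% for Trav14-1, 2.56% and 0.146% for Trav13n-1, and 1.20% and 5.72% for Trav12-3. Cells are not assigned to mice, so a clone large in 1 mouse and a difference shared by mice cannot be told apart. These segments were picked after their values were seen.

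Of the genes within 1 Mb of Tnfrsf9, 5 were measured. Eno1 alone passed the limit (-0.69), and the other 4 lay between -0.29 and 0.26, with Park7, which starts next to Tnfrsf9, at 234 and 224 CPM (0.19).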
